A study of Rattus norvegicus with 4 samples.

Results

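The miR-181 family was measured in rat prostate on 4 one-colour miRNA arrays. Its members were taken by name as the probes for the major arms rno-miR-181a, rno-miR-181b, rno-miR-181c and rno-miR-181d (rno- stands for rat and is left out from here on), and all 4 were present among the 679 miRNA probes of the array, with 1 spot each per array. The animals were male TRAP rats, a transgenic line in which the probasin promoter drives a simian virus T antigen in the prostate epithelium, so every group carried the transgene and no rat without it was measured. Rats were 6 weeks old at the start, were fed a control diet and were injected intravenously 2 times a week for 8 weeks with saline or with OBP-801, which inhibits histone deacetylases. The labels give the dose as 1 mg/kg in the treatment protocol and as 1 mg in the description of the agent. RNA came from the ventral or the lateral prostate, which gave 4 groups of 1 array each, saline and OBP-801 for either lobe. How many rats an array stands for is not given in the labels. On the slides the saline arrays took position 1 and the OBP-801 arrays position 2, which means that agent and position cannot be told apart, and the array names carry 1 code for the ventral and another for the lateral arrays, so this code and the lobe cannot be told apart either.

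miR-181 miRNAs are short RNAs that guide the Argonaute silencing complex to messenger RNAs, chiefly through the seed near their 5′ end. In mouse thymocytes miR-181a is known for raising the sensitivity of the T cell receptor by lowering several phosphatases, and the family is also expressed in vascular endothelium and in many epithelial tumours. Members that share a seed are expected to recognise largely the same targets, which is why the mature sequences are set side by side here. They are RefSeq sequences (GRCr8), written 5′ to 3′ with the seed, bases 2 to 8, in capitals.
miR-181a: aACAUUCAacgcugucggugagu
miR-181b: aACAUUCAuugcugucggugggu
miR-181c: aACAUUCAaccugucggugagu
miR-181d: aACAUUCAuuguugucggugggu

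All 4 members had the same seed, and of 693 mature miRNA names in the RefSeq table these 4 were the only ones that carried it. Counting from the 5′ end, miR-181a and miR-181b differed by A9U, C10U and A21G, with the base of miR-181a first. miR-181b and miR-181d differed by C12U alone, and miR-181c was miR-181a with 1 base left out. The probes for such close sequences may bind each other's targets, and this was not tested. The family had 6 genes in 3 clusters. Mature miR-181a lies at chr3:43025601-43025623 (gene Mir181a2) and at chr13:52037081-52037103 (Mir181a-1), both on the plus strand. Mature miR-181b lies at chr13:52037263-52037285 (Mir181b1) on the plus strand, and its other gene, Mir181b2, follows Mir181a2 on chromosome 3 after 986 bases. miR-181c, at chr19:40888314-40888335, and miR-181d, at chr19:40888484-40888506, are plus-strand neighbours whose hairpins lie 77 bases apart. The hairpins Mir181a-1 and Mir181b1 lie 61 bases apart, and the next gene after them in the annotation is Ptprc, which encodes the leukocyte protein CD45. An array probe for miR-181a or miR-181b reads the product of both its genes together.

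The hairpin of Mir181a2 (chr3:43025563-43025679, plus strand) shows where the major arm and the minor arm, which is marked with an asterisk in the array's names, come from. Both arms are in capitals, the major arm first.
Mir181a2: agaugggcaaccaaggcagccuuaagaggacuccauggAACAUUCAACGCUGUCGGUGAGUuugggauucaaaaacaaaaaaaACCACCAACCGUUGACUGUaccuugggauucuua

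Across the series, 290 to 329 of the 679 probes were detected per array, that is, had a spot intensity above the mean plus 2 SD of the array's 2278 blank spots. On all 4 arrays 242 probes were detected, or 35.6%. As a check of the tissue, the epithelial marker list was set against miRNAs of liver and striated muscle. The epithelial list was detected in full on every array (7 of 7), and miR-122, a miRNA of liver, was detected on 0 of 4. The striated muscle list was not absent, with 2 to 4 of its 4 probes detected per array. With 4 arrays in all and no replicate in any group, the number of arrays limits the precision. A fold change between 2 arrays therefore has no error of its own and is set against the spread of all probes in that comparison, given as a robust SD (from the median absolute deviation). In whole tissue, fewer cells that express a miRNA and less of it per cell cannot be told apart.

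Only miR-181a stood far above background on every array, and the other members lay close to the detection limit. The spot of miR-181a (rno-miR-181a on the array) had an intensity of 309 with saline and 282 with OBP-801 in the ventral lobe, and of 375 with saline and 331 with OBP-801 in the lateral lobe. It was highest in lateral saline and lowest in ventral OBP-801, and in each lobe the OBP-801 array was the dimmer one. These intensities lay 18.8 to 26.4 blank SDs above the blank mean, and 0 of the 2278 blank spots on any array were as bright.

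The spot of miR-181b (rno-miR-181b) had an intensity of 131 with saline and 118 with OBP-801 in the ventral lobe, and of 148 and 141 in the lateral lobe. The order of the arrays by distance from the blank mean was lateral saline, lateral OBP-801, ventral saline and ventral OBP-801, at 4.26, 3.21, 2.64 and 2.20 blank SDs. On the array of ventral OBP-801 the spot passed the limit of 116 by little, and 34 of the 2278 blank spots (1.49%) were as bright.

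The spot of miR-181c (rno-miR-181c) had an intensity of 115 with saline, below the limit of 124 there, and 118 with OBP-801 in the ventral lobe, and of 126 and 147 in the lateral lobe. It was detected on 3 arrays, at 2.19, 2.15 and 3.81 blank SDs in that order. The spot of miR-181d (rno-miR-181d) had 114 with saline and 112 with OBP-801 in the ventral lobe, and 126 and 135 in the lateral lobe. It was detected in the lateral prostate on both arrays, at 2.15 and 2.57 blank SDs, and not in the ventral prostate, at 1.07 and 1.41. Among blank spots, 69 were as bright as miR-181c or miR-181d in lateral saline (3.03%), so a signal of this size also occurs without a probe.

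**Figure D1:**
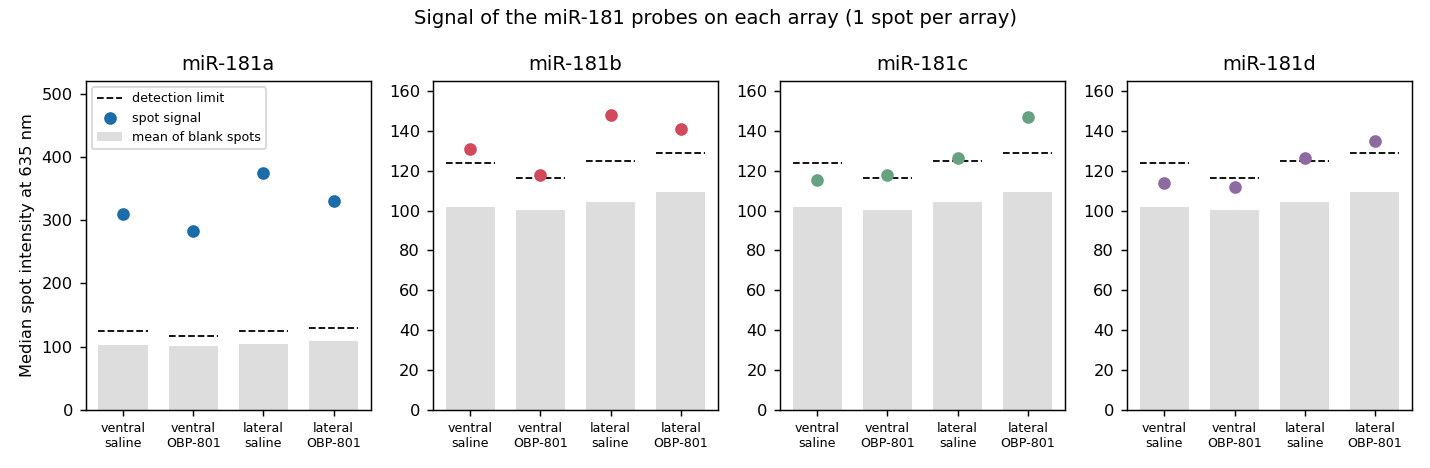
Median spot intensity of each family member (points, 1 spot per array) on the 4 arrays, with the mean of the blank spots as grey bars and the detection limit as dashed lines. The panel of miR-181a has a wider intensity axis than the others, since it lay between 282 and 375 while the other members stayed between 112 and 148.

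Detection of the dimmer members depended on the limit. With a limit of the mean plus 3 blank SDs, miR-181a stayed detected on 4 arrays, miR-181b on 2 and miR-181c on 1, and miR-181d on 0. With a limit from the 24 negative control spots, miR-181a and miR-181b were detected on 4 arrays, and miR-181c and miR-181d on 2 each, which were the OBP-801 arrays of both lobes. Under this limit both members were thus detected after OBP-801 and not after saline, but the whole array shifted the same way. Of all 679 probes it detected 266 on either saline array, 325 in ventral OBP-801 and 310 in lateral OBP-801. The limit itself was 110 on the array of ventral OBP-801 against 128 to 132 on the others. The negative controls averaged 98.5 there, below the blank mean of 100.1, and 110.0 to 115.5 on the other arrays, above it. The part of these control levels in the detection of miR-181c and miR-181d was not tested.

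The 6 minor arms on the array, miR-181a-1*, miR-181a-2*, miR-181b-1*, miR-181b-2*, miR-181c* and miR-181d*, were detected on 0 of 4 arrays each. This was common on the array, since 300 of all 679 probes were detected on no array. The authors' deposited table does hold values for miR-181a-1* on 2 arrays and for miR-181b-2* and miR-181c* on 1 array each. Minor arms are the strands that are usually degraded after the hairpin is cut. Their highest intensity was 127.6, for miR-181b-2* in lateral OBP-801, at 1.86 blank SDs. That of miR-181a-1* on the same array was 127.3, at 1.82, and the lowest value was 84.0, for miR-181b-2* in lateral saline, at -1.95. No difference is therefore given for a minor arm.

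**Figure D2:**
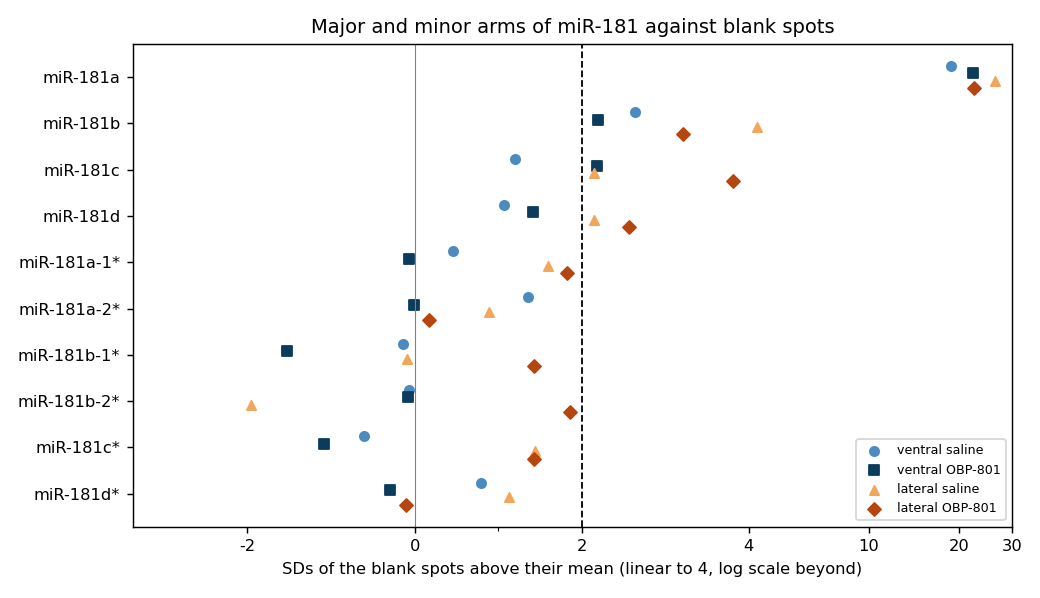
Distance of each major and minor arm of the family from the blank spots, in SDs of the blank spots, by array (symbols); the axis is linear up to 4 and logarithmic beyond, and the dashed line marks the detection limit of 2. miR-181a lies between 18.8 and 26.4, miR-181b between 2.20 and 4.26, and no minor arm passes 2.

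The first comparison asked how the family's levels in the ventral prostate differ after OBP-801. Values for this and the following comparisons are log2 intensities after background correction with an offset of 50, which shrinks differences of dim probes, and quantile normalization. The level of miR-181a was 8.24 with saline and 8.17 with OBP-801, which is a difference of -0.07, and saline was 1.05-fold higher. miR-181b had 6.63 and 6.54, a difference of -0.09, or 1.07-fold higher in saline. These were the members detected on both arrays, and both lay below 0 with a median of -0.08, beside -0.02 over all 260 probes detected on both. The spread of all probes was 0.26, so both differences were well within it, and 110 and 102 of the 260 probes lay further down than miR-181a and miR-181b. Of these 2 members, 0 differed at least 2-fold, as 0.769% of all probes did, and 0 at least 1.5-fold, as 6.54% did. miR-181c was detected after OBP-801 only. Its normalized value there was 1.06-fold the bound for saline, while its spot intensities were close, at 118 after OBP-801 and 115 with saline. miR-181d was detected on neither array.

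In the lateral prostate, the same comparison placed miR-181a further down. The level of miR-181a was 8.44 with saline and 8.01 with OBP-801, which is a difference of -0.43, and saline was 1.34-fold higher. The spread of all 271 probes detected on both arrays was 0.23 around a median of 0, and 18 of them lay further down than miR-181a, so that the difference was 1.86 spreads from the median. miR-181b had 6.88 and 6.62, a difference of -0.26 or 1.20-fold higher in saline, with 41 probes further down. miR-181c, at 6.62 on both arrays, and miR-181d, at 6.53 and 6.51, differed by -0.00 and -0.02, with no settled sign: that of miR-181c was positive under 6 of 7 other ways of processing, up to 0.57 in the authors' deposited table, and that of miR-181d under 4 of 7. The family's median over 4 of 4 members was -0.14, beside 0 over all probes. Of the 4, 0 differed at least 2-fold (0.738% of all probes) and 0 at least 1.5-fold (4.8%). Before normalization the picture of the dim pair was another one: the intensity of miR-181c was 126 with saline and 147 with OBP-801 and that of miR-181d 126 and 135, on arrays whose blank means were 104.1 and 109.4.

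**Figure D3:**
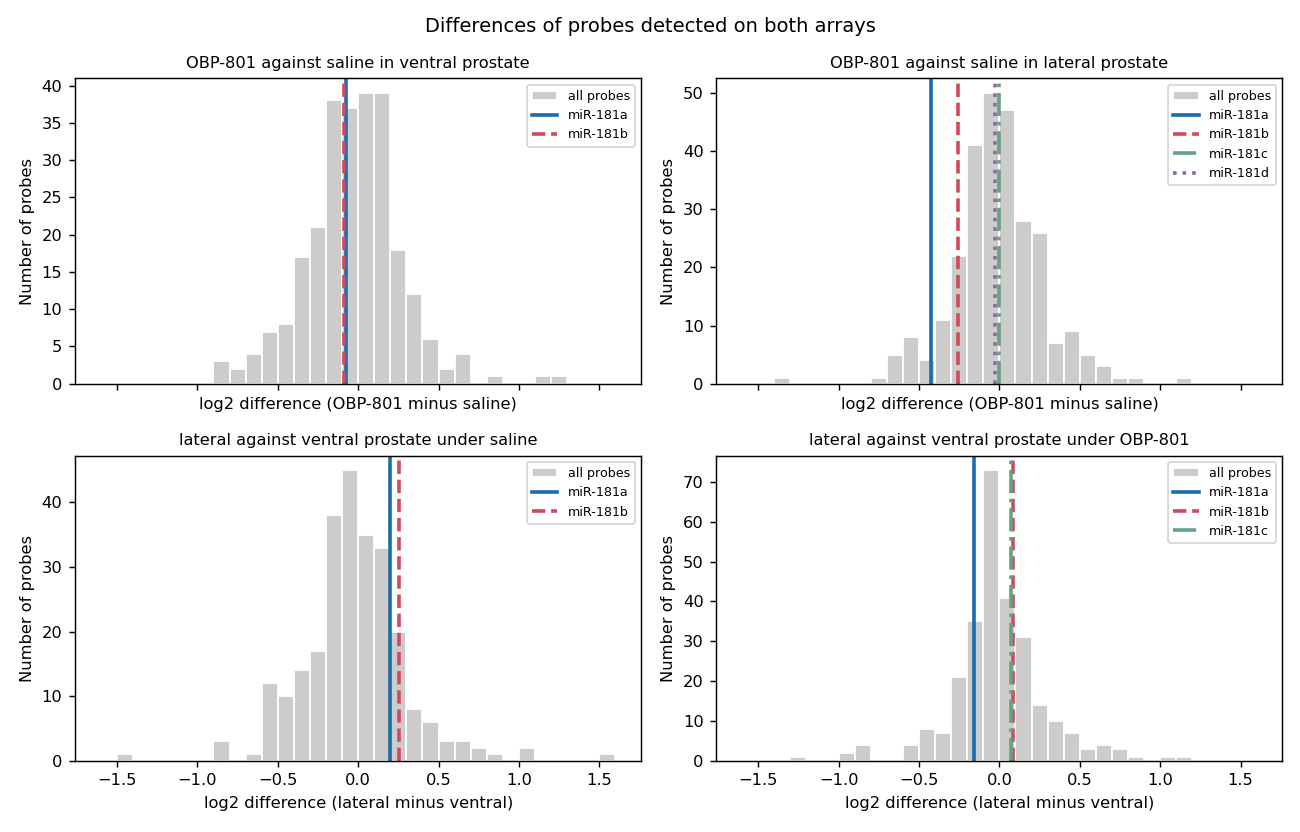
Number of probes by log2 difference between 2 arrays for the 4 comparisons (grey bars, probes detected on both arrays), with the family members detected on both as lines. In the lateral prostate after OBP-801 miR-181a lies at -0.43, in the lower tail of all probes, and in the other comparisons the members lie between -0.16 and 0.25.

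A fit of both lobes together gave the drug difference with an error. In it, lobe and agent were additive terms over the 242 probes detected on all arrays, which leaves 1 residual degree of freedom, so that the residual reflects how far the responses of the lobes differ. For OBP-801 against saline, miR-181a had -0.25 (SE 0.13, 95% interval -0.62 to 0.12, limma, adjusted p = 0.356), with group means of 8.09 after OBP-801 and 8.34 after saline. miR-181b had -0.17 (SE 0.098, 95% interval -0.46 to 0.11, limma, adjusted p = 0.398), with means of 6.58 and 6.76. Lower estimates than those of miR-181a and miR-181b were held by 14.5% and 24.8% of the 242 probes. Of these 2 members, 0 passed an adjusted p of 0.05. Of the 242 probes 0 passed either (0%), with 40 at an unadjusted p of 0.05 and a smallest adjusted p of 0.153. The intervals leave room both for no difference and for one of the size seen in the lateral lobe. The lateral response of miR-181a minus its ventral response was -0.35, against a spread of 0.25 over the 242 probes, of which 5.79% lay lower. For miR-181b it was -0.17, with 22.7% lower, and neither has a test, since no residual degree of freedom is left.

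The sign of the drug difference of miR-181a and miR-181b was the same under every way of processing, while its size was not. Each way starts from the same 1 spot per array, so a shared sign is no replication. How many other probes kept their sign was not counted. miR-181a and miR-181b were below saline in both lobes under each of 7 alternatives, and also below the median of all probes. The lateral difference of miR-181a ran from -0.81, with the blank level subtracted without an offset, to -0.19 with no normalization between arrays. In the latter the median of all probes was 0.19, so that miR-181a lay 0.38 below it. The ventral difference ran from -0.76 to -0.05. That of miR-181b ran from -1.06 to -0.06 in ventral and from -0.98 to -0.10 in lateral prostate. With the blank level subtracted both members were past 1.5-fold in both lobes, where the median of all probes was -0.50 in ventral and -0.12 in lateral prostate. The lowest ventral value of miR-181b came from the authors' deposited table, where its level was 13.2 with saline and 6.36 with OBP-801, past 2-fold. That table has the blank level as its zero, and its ventral median over all probes was -0.47. The shares of all probes past 1.5-fold or 2-fold were not counted under these alternatives, so the members' folds there have no such share beside them. In the fit of both lobes neither member passed an adjusted p of 0.05 (limma) under any alternative, with lowest values of 0.0889 for miR-181a and 0.0505 for miR-181b, both with the blank level subtracted without an offset.

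**Figure D4:**
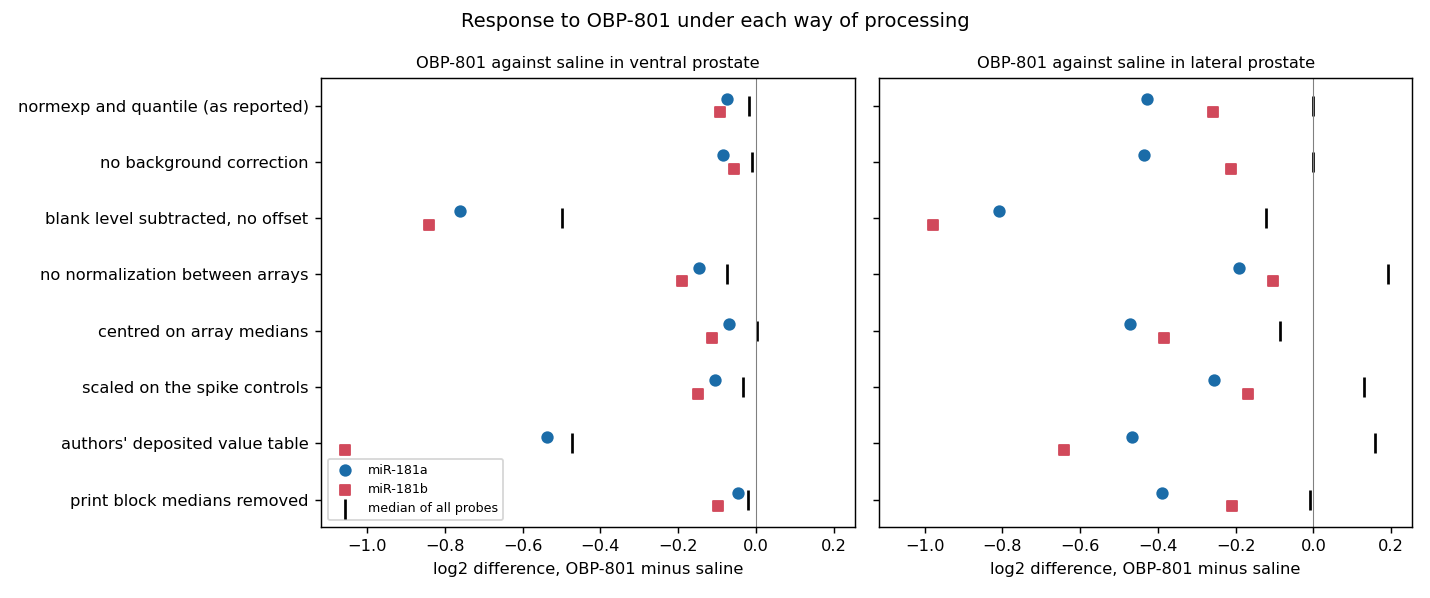
log2 difference of miR-181a (circles) and miR-181b (squares) between OBP-801 and saline in each lobe under each way of processing, with the median of all probes as vertical bars. Every symbol lies below 0 and to the left of the median of all probes. With the blank level subtracted or in the authors' deposited table the differences are larger than as reported, down to -1.06. For miR-181a in lateral prostate, however, the deposited table gives -0.47, close to the -0.43 reported.

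The remaining comparisons set the lobes against each other. Under saline, miR-181a was 0.20 higher on the log2 scale in the lateral than in the ventral prostate and miR-181b 0.25 higher, or 1.15-fold and 1.19-fold. The spread of all 255 probes was 0.25 around a median of -0.04, and 47 and 37 of them lay further up. Of these 2 members 0 differed at least 2-fold (1.57% of all probes) and 0 at least 1.5-fold (5.49%), but with the blank level subtracted miR-181b had 0.62, past 1.5-fold. miR-181c and miR-181d were detected in lateral saline only, each with a spot of 126.2 against a limit of 124.6. Their normalized values there were 1.11-fold and 1.04-fold the bounds for ventral saline. Neither was detected in lateral saline under the limit from negative controls (128.1) or that of 3 blank SDs (134.9). Under OBP-801 miR-181a had -0.16 for lateral minus ventral, which turned positive under 4 of 7 other ways of processing but stayed below the median of all probes under each. miR-181b had 0.09 and miR-181c 0.08 there, both negative (-0.10) when arrays were centred on their medians. They were 0.84 and 1.09 in the authors' deposited table, where the median of all probes was 0.51, and 0.48 and 0.72 with the blank level subtracted, where it was 0.29. The spread of all 271 probes was 0.21. As normalized here, 0 of these 3 members differed at least 2-fold (1.11%) and 0 at least 1.5-fold (6.64%), while miR-181b passed 1.5-fold in the deposited table, and miR-181c passed 2-fold there and 1.5-fold with the blank level subtracted. For either agent, the shares of all probes past these folds were not counted in the deposited table or with the blank level subtracted. miR-181d was detected only in the lateral prostate, where its normalized value of 6.51 was not above its bound.

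Over both agents, the fit gave 0.02 for miR-181a (SE 0.13, 95% interval -0.35 to 0.40, limma, adjusted p = 0.934) and 0.17 for miR-181b (SE 0.098, 95% interval -0.12 to 0.46, limma, adjusted p = 0.501) for lateral minus ventral. Again 0 of the 2 members and 0 of 242 probes (0%) passed an adjusted p of 0.05, with 40 probes at an unadjusted p of 0.05 and a smallest adjusted p of 0.0898.

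Ordered by normalized level, miR-181a was highest in lateral saline (8.44), followed by ventral saline (8.24), ventral OBP-801 (8.17) and lateral OBP-801 (8.01). No neighbours in this order differed by more than the spread of all probes between their arrays. miR-181b had 6.88 in lateral saline, 6.63 in ventral saline, 6.62 in lateral OBP-801 and 6.54 in ventral OBP-801. There, the first neighbours differed by 0.25, about the spread of 0.25, and the others by less than their spreads. Both members were thus highest in lateral saline, and both saline arrays were above both OBP-801 arrays after quantile normalization, while in the spot intensities given above lateral OBP-801 was brighter than ventral saline for both. The range over the 4 arrays was 0.43 for miR-181a and 0.34 for miR-181b, beside a median range of 0.36 over the 242 probes detected on all arrays, and 56.6% and 48.3% of these probes had a smaller range.

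The members detected on all arrays, miR-181a and miR-181b, were not each other's nearest profile, and miR-181c and miR-181d were not compared. Likeness was taken as the distance between log2 profiles centred over the 4 arrays, which share normalization and array with every probe. miR-181b was the 11th nearest of 240 probes to miR-181a, and miR-181a the 22nd nearest to miR-181b. Their distance was 0.19, with a Pearson's r of 0.79 over 4 arrays. Nearest to miR-181a were miR-17-1-3p, a minor arm of the proliferation-associated miR-17 cluster, at 0.11, miR-21*, the minor arm of miR-21, at 0.11, and let-7d, of the let-7 family, at 0.12. Then came miR-203, a miRNA of stratified epithelium, and miR-872, both at 0.13. Nearest to miR-181b were miR-25* at 0.075, miR-141* at 0.089, miR-423 at 0.091, and miR-203 and miR-872 at 0.096. The median distance of all probes was 0.42 from miR-181a and 0.37 from miR-181b. With 4 arrays many probes can lie this close, and the distances are a description only.

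Levels of cell type markers are set beside the family because lymphocytes and endothelium are known to express it. Leukocyte miRNAs (6 probes, all detected on every array) had medians of -0.13 in ventral and -0.15 in lateral prostate after OBP-801, with 5 of 6 below 0 in each. Of these, miR-142-5p, from a locus active in blood cells, passed 1.5-fold, at -0.61 and -0.62. Their summed signal above the blank mean was 1618 with saline and 1309 with OBP-801 in the ventral lobe, and 883 and 843 in the lateral lobe. Summed signals, here and below, come from spot intensities that were not normalized between arrays. The lateral OBP-801 array was the brightest. Its median log2 intensity before normalization, over the 242 probes detected on all arrays, was 7.79, against 7.42 to 7.51 on the others. For lateral minus ventral under saline the leukocyte median was -0.61, with 5 of 6 below 0 and miR-150, of lymphocytes, at 0.09, while miR-181a and miR-181b were at 0.20 and 0.25. Passing 1.5-fold there were miR-223, a myeloid miRNA, at -1.46, miR-146a, which dampens inflammatory signalling, at -0.69, and miR-146b at -0.88.

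Under OBP-801 the leukocyte median for lateral minus ventral was -0.69, with 6 of 6 below 0, beside -0.16 for miR-181a and 0.09 for miR-181b, and miR-223, miR-146a and miR-146b again passed 1.5-fold, at -0.84, -0.96 and -0.88. The endothelial pair miR-126 and miR-126* was above saline after OBP-801 in both lobes, with medians of 0.29 and 0.24, and summed to 970 with saline and 1337 with OBP-801 in the ventral lobe, and to 1336 and 2237 in the lateral lobe. Smooth muscle and fibroblast miRNAs (5 probes) had medians of 0.34 in ventral and 0.27 in lateral prostate after OBP-801, with 1 and 0 of 5 below 0. Past 1.5-fold in the lateral lobe were miR-145, of smooth muscle, at 1.14, which was at -0.31 in the ventral lobe, and miR-214, of fibroblasts, at 0.60. Their summed signal, not normalized, was 6569 and 7788 in the ventral and 9288 and 17183 in the lateral lobe. For lateral minus ventral their median was -0.10 under saline, with 3 of 5 below 0, and 0 under OBP-801, with 2 of 5 below 0. There, miR-143, of smooth muscle, had 0.78 under saline and 0.63 under OBP-801, and miR-145 had -0.36 and 1.09.

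Epithelial miRNAs (7 probes) had medians of -0.15 in ventral and 0 in lateral prostate after OBP-801, where miR-200a, miR-200b and miR-429 had the same normalized value on both lateral arrays. Their summed signal, not normalized, was 42619 with saline and 35182 with OBP-801 in the ventral lobe, and 58272 and 75725 in the lateral lobe. Past 1.5-fold in the ventral lobe were miR-205, of basal epithelium, at 0.62 and miR-141, of the miR-200 family, at -0.60. For lateral minus ventral the medians were 0.15 under saline and 0.20 under OBP-801, where miR-200a passed 1.5-fold at 0.79 and miR-205 was at -0.41. The striated muscle list was detected in part, with 3, 2, 4 and 4 of 4 probes from ventral saline to lateral OBP-801. Of it, miR-133a and miR-133b were higher in the lateral lobe, by 0.88 and 1.09 under saline and by 0.59 and 1.10 under OBP-801, while miR-206 was at -0.28 under saline and not detected in ventral OBP-801. The last of the list, miR-1, was not detected in the ventral lobe. The red cell miRNA miR-451 had 0.75 for lateral minus ventral under OBP-801 and 0.16 under saline. After OBP-801 it was at -0.04 in ventral and 0.56 in lateral prostate. The other red cell miRNA on the array, miR-144, was not detected on any array. The part of these markers in the family's differences was not tested.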

How the data were processed

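Total RNA labelled with the dye Hy5 was measured on 1-colour arrays, per the labels' protocols. The authors' deposited scanner files hold the median spot intensity and the median local background intensity, neither corrected nor normalized, per the file headers. The authors' deposited value table, made by unstated steps, was a straight line of the spot intensity with its zero near the blank mean trimmed by 5% at each end and a column median of 25, and served as an alternative. Background was corrected by normexp (offset 50, fitted over every spot), controls were then dropped, 1 spot marked as faulty (no family member) was set to missing, and log2 values were quantile-normalized (limma 3.58.1, R 4.3.3). Single arrays were compared as log2 differences without a test. The fit of both lobes used lmFit and eBayes on 242 probes with Benjamini-Hochberg adjustment. On simulated data it was required only to return planted drug differences at their size. Those data held no difference between the lobes' responses, so the case where these responses differ was not covered. For a probe detected on 1 array of a pair, the bright value was set against the higher of the dim value and the lowest detected value there. Named miRNAs were all members, all minor arms, the 5 nearest profiles of each member detected on all arrays and markers past 1.5-fold, and the endothelial pair and miR-122 were added. Members and lists were chosen with earlier results of these data known. RefSeq mature sequences (GRCr8) matched 4 of 4 members by name, and the array names no build.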

Additional observations from a re-analysis of the deposited data

Results flagged for a closer look

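The lobe difference of miR-181a had opposite signs under the 2 agents, and this was the only family result that met a rule for a closer look. For lateral minus ventral it was 0.20 under saline and -0.16 under OBP-801, a change of -0.35, which is the same quantity as the difference between the lobes' drug responses. Each group is 1 array, so the difference between agents was not tested. The sign under OBP-801 also followed the scaling: it was positive under 4 of 7 alternatives, while relative to the median of all probes it was negative under all 7.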

How the results depend on the processing

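When the blank level was subtracted without an offset, drug differences were -0.76 for miR-181a and -0.84 for miR-181b in ventral prostate, and -0.81, -0.98 and -0.29 for miR-181a, miR-181b and miR-181d in lateral prostate. Lateral minus ventral was then 0.62 for miR-181b under saline, and 0.23, 0.48 and 0.72 for miR-181a, miR-181b and miR-181c under OBP-801. In the authors' deposited table the drug differences were -0.54 (miR-181a) and -1.06 (miR-181b) in ventral and -0.64 (miR-181b) and 0.57 (miR-181c) in lateral prostate, and lateral minus ventral under OBP-801 was 0.31, 0.84 and 1.09 for miR-181a, miR-181b and miR-181c. That table shifts the median of all probes by -0.47 in ventral prostate and by 0.51 between lobes under OBP-801. With no normalization miR-181a had -0.19 for the lateral drug response and 0.22 for lateral minus ventral under OBP-801, and with spike scaling the latter was 0.23, and 0.29 for miR-181c. The cause of these shifts was not tested. The number of probes past an adjusted p of 0.05 (limma), 0 for both terms as reported, was 9 for the agent and 20 for the lobe with no background correction, and 19 and 11 with the blank level subtracted. It was 4 and 28 with no normalization, 18 and 59 with spike scaling, and for the lobe also 19 with centring on array medians, 2 in the deposited table and 2 with no filter on dim probes. No such call was miR-181a or miR-181b, and both kept their direction for both terms in every fit they entered. The fit with no filter on dim probes also took in miR-181c and miR-181d. Whether its calls include either of them was not recorded. The limit of 3 blank SDs gave 2, 1 and 0 arrays for miR-181b, miR-181c and miR-181d. The stricter filter left miR-181b out. The fit of both lobes pairs the arrays by lobe, and without the lobe term it gave 0 calls for the agent, with adjusted p (limma) of 0.550 for miR-181a and 0.700 for miR-181b. No paired analysis was possible by replicate number because each group holds 1 array and the labels number none. Depth in the sense of signal over background limits all members but miR-181a.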

Other observations

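The miRNA miR-3570, named here after its values were seen, is annotated on the strand opposite Mir181a-1, and its mature sequence is the exact reverse complement of the minor arm miR-181a-1*. Its spot intensity was 105 with saline and 97.4 with OBP-801 in the ventral lobe, and 103 and 146 in the lateral lobe. On that last array alone it passed the detection limit. The intensity of miR-181a-1* was 107, 99.5, 120 and 127 in the same order, below the limit on every array. The array of lateral OBP-801 also had the most probes detected, 329.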
